A study of Mus musculus with 7 samples.

Results

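Genes of cholesterol synthesis and handling were followed in single-nucleus RNA libraries from mouse brain, 30 of the 32285 genes in the deposited matrices, taken by symbol. By role they were 8 genes of the mevalonate and isoprenoid steps, 12 of the squalene and sterol steps, 5 of sterol sensing and 5 of transport, esterification, turnover and sterol-activated transcription. All mice were 5xFAD +/-, hemizygous carriers of mutant human transgenes that lead to amyloid plaques, and were 6 months old. Into the retro-orbital sinus, 3 mice had been given control AAV (an adeno-associated virus vector) and 4 mice ANGPT2 AAV at the age of 4 months, and their brains were taken 2 months later. ANGPT2 is angiopoietin-2, a secreted ligand of the endothelial receptor encoded by Tek. Hippocampus, thalamus and subcortex are named as the tissue, and a library is 1 mouse. Control mice 1 and 3 were male and control mouse 2 was female, while ANGPT2 mice 1 and 3 were male and ANGPT2 mice 2 and 4 were female. Batch 1 by the labels held control mice 1 and 2 and ANGPT2 mice 1 and 2, and batch 2 held control mouse 3 and ANGPT2 mice 3 and 4. There was no mouse without the 5xFAD transgenes and no uninjected mouse among these libraries, and the promoter, serotype and species of the ANGPT2 insert are not given in the sources used here.

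Cholesterol does not cross the blood-brain barrier in useful amounts, so the brain makes its own, and myelin holds most of it. Acetyl units are joined and reduced to mevalonate, converted to isoprenoid units, condensed to squalene, closed to lanosterol and then trimmed to cholesterol. When sterol in the endoplasmic reticulum is low, the escort protein encoded by Scap carries the SREBP transcription factors to the Golgi for release, and the Insig proteins hold that complex back when sterol is plentiful. Neurons remove surplus cholesterol by hydroxylating it, other cells store it as esters, and oxysterols activate the liver X receptors (Nr1h2, Nr1h3).

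Promoter sequence was matched to 26 of the 30 genes in RefSeq's table on GRCm38.p6. Fdps, Fdft1, Sqle and Stard4 had no entry there. Shown are the 250 bases before the RefSeq start of 5 genes on which the comparisons below turn: 4 synthesis enzymes and the sterol sensor Insig1. Capitals mark CCAAT (or ATTGG, its reverse complement), the box that nuclear factor Y binds and that often stands near SREBP sites, and TCACNCCAC, a sterol-response-like run. Each is written 5′ to 3′ on the gene's own strand. Their positions are chr13:119690101-119690350 (plus strand) for Hmgcs1, chr13:8885356-8885605 (plus) for Idi1, chr5:4104698-4104947 (minus) for Cyp51, chr8:64733579-64733828 (minus) for Msmo1 and chr5:28071162-28071411 (plus) for Insig1.
Hmgcs1: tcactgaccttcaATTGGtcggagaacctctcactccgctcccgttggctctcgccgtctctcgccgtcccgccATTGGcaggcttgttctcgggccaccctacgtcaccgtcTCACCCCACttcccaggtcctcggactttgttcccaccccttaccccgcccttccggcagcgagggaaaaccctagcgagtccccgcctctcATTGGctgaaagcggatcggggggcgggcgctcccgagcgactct
Idi1: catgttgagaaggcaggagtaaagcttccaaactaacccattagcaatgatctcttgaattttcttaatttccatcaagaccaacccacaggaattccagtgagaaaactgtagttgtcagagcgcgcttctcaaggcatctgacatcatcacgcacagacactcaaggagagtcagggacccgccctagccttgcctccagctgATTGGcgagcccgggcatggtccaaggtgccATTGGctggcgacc
Cyp51: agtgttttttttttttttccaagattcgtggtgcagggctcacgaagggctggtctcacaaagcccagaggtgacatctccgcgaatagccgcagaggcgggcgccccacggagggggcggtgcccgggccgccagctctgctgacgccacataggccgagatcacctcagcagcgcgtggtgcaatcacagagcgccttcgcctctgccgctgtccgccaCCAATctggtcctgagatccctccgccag
Msmo1: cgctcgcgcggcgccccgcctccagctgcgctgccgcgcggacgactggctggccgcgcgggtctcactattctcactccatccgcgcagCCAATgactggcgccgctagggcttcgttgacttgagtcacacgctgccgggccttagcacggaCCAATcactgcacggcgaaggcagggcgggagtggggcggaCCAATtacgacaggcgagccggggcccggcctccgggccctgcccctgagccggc
Insig1: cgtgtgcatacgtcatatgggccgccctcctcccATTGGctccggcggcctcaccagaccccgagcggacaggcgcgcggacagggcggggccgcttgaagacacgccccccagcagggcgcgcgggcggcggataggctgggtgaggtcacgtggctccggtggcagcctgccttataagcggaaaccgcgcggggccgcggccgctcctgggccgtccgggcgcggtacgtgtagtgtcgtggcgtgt
A CCAAT box on either strand stood in 22 of the 26 genes with a window, all but Acat2, Nr1h2, Nr1h3 and Scap. It stood in 23 of these genes' 35 windows (65.7%), against 33.8% of all 32851 windows of the same length. TCACNCCAC on either strand was in the Hmgcs1 window alone, and in 1.05% of all windows. These are matches of letters in one window per transcript start, which overlap between starts of the same gene. By the GENCODE annotation, Idi1 starts at 8885501, Cyp51 at 4104746, Msmo1 at 64733792 and Insig1 at 28071363, inside the windows shown. The marked boxes of Idi1, Cyp51 and Msmo1 come after that start and so lie within the annotated gene.

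The 7 libraries held 58286 barcodes, of which 54230 nuclei were kept, and their total UMIs (unique molecular identifiers, 1 per captured RNA molecule) ranged from 25466033 to 100529717. Median UMIs per nucleus were 3678 to 8278 in batch 1 and 2262 to 3407 in batch 2. Pairs of libraries shared 0.998% to 1.57% of the smaller library's barcodes. Nuclei were clustered without the 30 genes and named from marker genes, so each name stands for a cluster that resembles the type: 10461 oligodendrocytes, 3014 astrocytes, 18419 excitatory neurons, 7228 inhibitory neurons and 1134 oligodendrocyte precursors. Medium spiny neurons were counted with inhibitory neurons, and dentate granule and thalamic neurons with excitatory neurons. Clusters left unnamed, the largest of 6338 nuclei (2084 from ANGPT2 mouse 2) and 2137 nuclei, entered whole libraries but no type. A cluster of 2691 nuclei led by Inpp5d held microglial markers at 5278 to 7564 CPM in sum, but its median UMIs were 0.331 of the library median with no microglial marker among its leading genes, so it is called the Inpp5d cluster. Levels are given as CPM, UMIs of the gene per 1000000 UMIs of that nucleus type in that library. The library of control mouse 2 stood apart in activity genes: its excitatory neurons had Fos (an immediate early gene) at 55.3 CPM and Bdnf (a neurotrophin) at 292 CPM, against 3.43 to 7.44 and 21.5 to 40.6 CPM in the other libraries. Mouse Angpt2 in whole libraries was at 3.76, 4.32 and 3.91 CPM in control mice 1 to 3 and at 4.79, 3.6, 2.19 and 2.8 CPM in ANGPT2 mice 1 to 4. Whether RNA from the vector is counted as mouse Angpt2 was not tested.

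Astrocytes held the highest mean level of 25 of the 30 genes among the 4 main nucleus types. Oligodendrocytes were highest for 3 (Lbr, Ebp and Scap) and inhibitory neurons for 2 (Ggps1 and Cyp46a1). Of all 14686 genes tested between types, 30.4%, 37.6% and 16.4% were highest in these 3 types. The second type was below astrocytes in 7 of 7 libraries for 15 of the 25 genes, and in 4 of 7 for Insig2 (1.03-fold) and Nr1h2 (1.15-fold). For 6 of the 25 the astrocyte range did not overlap that of the second type, which held for 9.29% of all genes. This order is that of CPM, and with the TMM factors used for the tests Tm7sf2 had a log2 difference of -0.01 in astrocytes against excitatory neurons. The summed CPM of the 20 enzymes of synthesis was 1009.7 ± 236 in astrocytes, 559 ± 47.5 in oligodendrocytes, 411 ± 66.5 in excitatory neurons and 301 ± 48.1 in inhibitory neurons (SD, n = 7). That sum ran from 689 to 1387 over the astrocyte libraries and from 464 to 610.3 over the oligodendrocyte libraries, so the lowest astrocyte library was above the highest oligodendrocyte library.

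**Figure D1:**
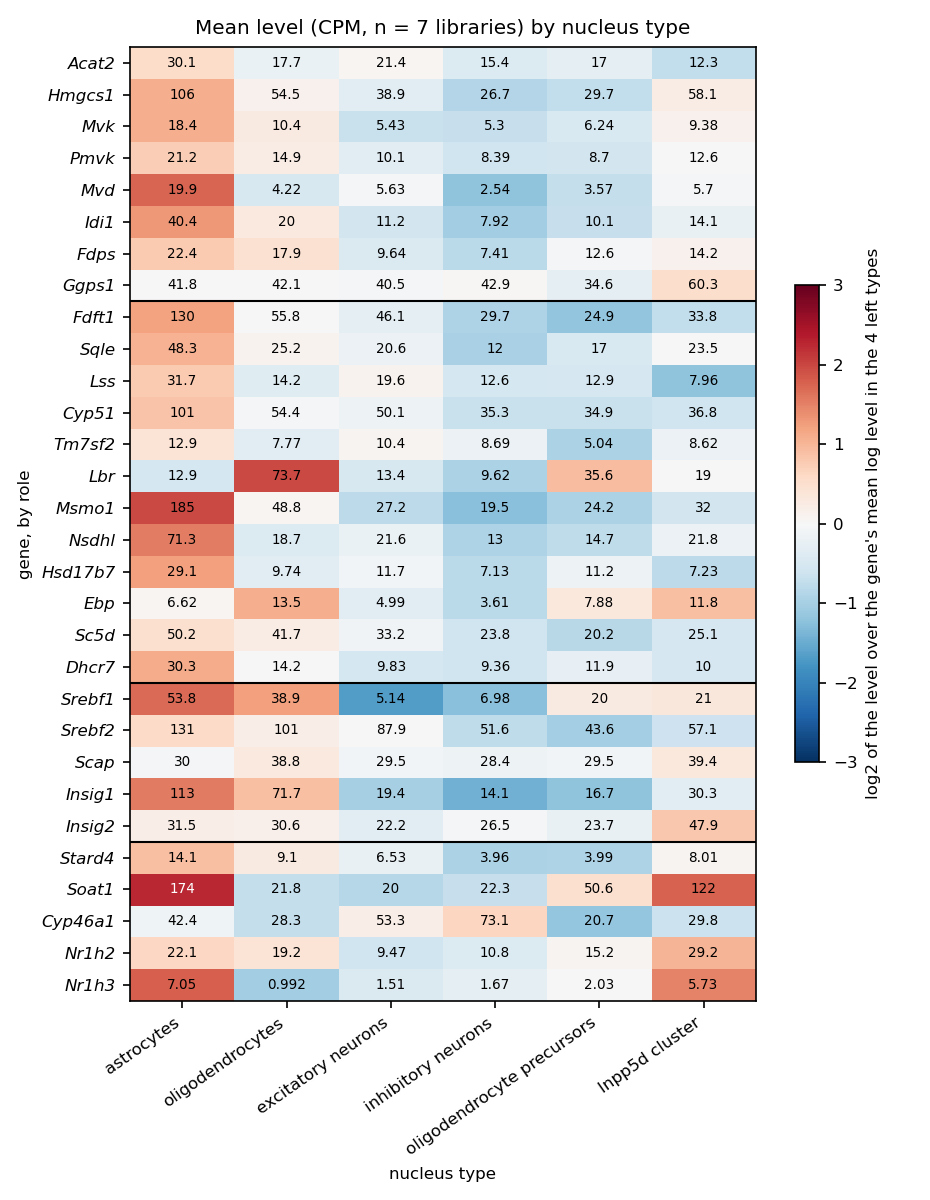
Mean CPM over 7 libraries of each gene (vertical axis, grouped by role) in each nucleus type (horizontal axis), with the mean printed in each cell and the colour showing its log2 ratio to the gene's mean log level in the 4 main types. The astrocyte column holds the highest of the 4 main types for 25 genes, with Msmo1 at 185 and Soat1 at 174 CPM, while Lbr is highest in oligodendrocytes at 73.7 CPM.

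Each type was compared with another within the same libraries by edgeR's quasi-likelihood test on UMIs summed per library and type, with Benjamini-Hochberg adjustment over the 14686 genes tested and an adjusted p of 0.05 as the threshold. In astrocytes against excitatory neurons, 24 of 30 genes passed, against 72.4% of all genes tested, and 20 were higher and 4 lower (background 35.3% and 37.1%). The median log2 difference of the 30 was 0.85, and that of all genes -0.03. In oligodendrocytes against astrocytes 24 passed, 3 higher and 21 lower (background 55.2% in all, 29.6% higher and 25.6% lower), with a median of -0.73 beside 0.11 for all genes. In oligodendrocytes against excitatory neurons 17 passed, 9 higher and 8 lower (background 78.7%, split 39.1% and 39.7%), with a median of 0.03 beside -0.01. In inhibitory against excitatory neurons 21 passed, 2 higher and 19 lower (background 39.7%, split 18.6% and 21.1%), with a median of -0.58 beside 0.00. A difference of at least 2-fold was reached in these 4 contrasts by 12, 12, 5 and 1 of the genes, where 40.0%, 26.6%, 43.7% and 12.1% of all genes reached it.

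The fitted differences above were scaled with TMM factors, which set most genes level between types, whereas CPM were scaled by total UMIs. Under total scaling the median of all genes moved by 0.36 for astrocytes and 0.34 for oligodendrocytes against excitatory neurons, by 0.11 for inhibitory against excitatory neurons and by -0.02 for oligodendrocytes against astrocytes. The share of all passing genes that were higher went from 48.7% to 66.2%, from 49.6% to 63.3%, from 46.9% to 65% and from 53.6% to 51.7%. Of the 30 genes, 25 then passed for astrocytes against excitatory neurons (24 higher, 1 lower), 23 for oligodendrocytes against excitatory neurons (19 and 4), 21 for inhibitory against excitatory neurons (3 and 18) and 25 for oligodendrocytes against astrocytes (3 and 22). Genes that passed in the same direction under both scalings numbered 21 (20 higher, 1 lower), 13 (9 and 4), 20 (2 and 18) and 24 (3 and 21), in that order of contrasts, and no passing gene turned its direction. Relative to excitatory neurons, the lower calls of Ggps1, Lbr and Scap in astrocytes and of Acat2, Ggps1, Nsdhl and Hsd17b7 in oligodendrocytes did not pass under total scaling. The calls gained there were all higher: Acat2, Lss, Sc5d and Insig2 in astrocytes, Hmgcs1, Pmvk, Fdft1, Sqle, Sc5d, Dhcr7, Srebf2, Scap, Insig2 and Stard4 in oligodendrocytes, and Insig2 in inhibitory neurons, which lost Pmvk. Between oligodendrocytes and astrocytes, Stard4 was gained as lower.

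The mevalonate and isoprenoid steps were higher in astrocytes than in excitatory neurons for 6 of 8 genes, with Ggps1 lower and Acat2, the acetoacetyl-CoA thiolase, not passing. Idi1, the isopentenyl diphosphate isomerase, ran from 22.4 to 60.7 CPM in astrocytes (median 35.5), from 15.2 to 25.9 in oligodendrocytes (20.4), from 8.71 to 17.7 in excitatory neurons (10.1) and from 2.96 to 10 in inhibitory neurons (8.56). Its log2 difference between astrocytes and excitatory neurons was 1.53 (SE 0.16, adjusted p = 6.84e-09), and every astrocyte library was above every excitatory library. Mvd, the mevalonate diphosphate decarboxylase, ran from 14 to 31 CPM in astrocytes (median 19.5), from 2.74 to 4.9 in oligodendrocytes (4.73), from 4.02 to 7.4 in excitatory neurons (5.3) and from 1.58 to 3.35 in inhibitory neurons (3.01). Of this group it differed most between oligodendrocytes and astrocytes, at a log2 difference of -2.20 (SE 0.21, adjusted p = 1.41e-09). It also gave the sole 2-fold difference between the neuron types, at -1.25 in inhibitory against excitatory neurons (SE 0.17, adjusted p = 1.05e-06). The other genes of these steps that were higher in astrocytes than in excitatory neurons were Hmgcs1 (HMG-CoA synthase, log2 1.07), Mvk (mevalonate kinase, 1.40), Pmvk (phosphomevalonate kinase, 0.68) and Fdps (farnesyl diphosphate synthase, 0.93), of which Fdps did not pass in batch 2 alone (0.50, adjusted p = 0.114). Hmgcs1 varied widely between astrocyte libraries, from 51.8 to 182 CPM, and was above the excitatory neurons of the same library in 6 of 7. Ggps1, which leads isoprenoids away to protein prenylation, stood at 41.8 ± 7.46, 42.1 ± 11.4, 40.5 ± 6.97 and 42.9 ± 10.4 CPM in astrocytes, oligodendrocytes, excitatory and inhibitory neurons (SD, n = 7), ranges that overlap throughout.

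Among the 12 squalene and sterol steps, 7 were higher in astrocytes than in excitatory neurons and 1 (Lbr) was lower, while 9 were lower in oligodendrocytes than in astrocytes and 2 (Lbr and Ebp) higher. Msmo1, the sterol methyl oxidase, ran from 117 to 254 CPM in astrocytes (median 183), from 41.5 to 58.3 in oligodendrocytes (48.5), from 21.2 to 41.5 in excitatory neurons (25.5) and from 14.5 to 24.5 in inhibitory neurons (19.8). For Msmo1 the log2 difference was 2.40 in astrocytes against excitatory neurons (SE 0.12, adjusted p = 4.2e-15) and -1.85 in oligodendrocytes against astrocytes (SE 0.13, adjusted p = 3.05e-12). No astrocyte library overlapped any other type for this gene. Nsdhl, the sterol dehydrogenase of the same demethylation complex, ran from 45.8 to 90.4 CPM in astrocytes (median 70.8) and from 15.2 to 23.2 in oligodendrocytes (18.5), a log2 difference of -1.88 (SE 0.18, adjusted p = 1.16e-09). Hsd17b7, its ketoreductase, ran from 14.5 to 43.3 CPM in astrocytes (median 26.7) and from 3.81 to 12.5 in oligodendrocytes (10.3), a log2 difference of -1.51 (SE 0.21, adjusted p = 6.21e-07). Neither gene's oligodendrocyte range reached its astrocyte range. Squalene synthase (Fdft1, log2 1.12), squalene epoxidase (Sqle, 0.86), lanosterol demethylase (Cyp51, 0.65) and the last reductase of one branch (Dhcr7, 1.24) were also higher in astrocytes than in excitatory neurons, each in 7 of 7 libraries. In the control libraries alone Cyp51 did not pass (0.63, adjusted p = 0.0561). The lower call of Lbr in this contrast was lost in 6 of 19 alternatives, that of Ggps1 in 5 and that of Scap in 4. For Lbr these included batch 2 (-0.39, adjusted p = 0.277) and the control libraries (-0.33, adjusted p = 0.392). Lss (lanosterol synthase), Tm7sf2, Ebp and Sc5d did not pass with TMM factors, but Lss (0.67, adjusted p = 0.00143) and Sc5d (0.58, adjusted p = 0.000171) were higher under total scaling.

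Lbr and Ebp ran the other way. Lbr encodes a sterol reductase that is also the lamin B receptor of the inner nuclear membrane. Its level was 51.5 to 87.4 CPM in oligodendrocytes (median 83.1), against 8.43 to 17.9 in astrocytes (12.4), 10.6 to 15 in excitatory neurons (13.6) and 6.32 to 12.1 in inhibitory neurons (9.48). The log2 difference from astrocytes was 2.56 (SE 0.15, adjusted p = 7.58e-14) and from excitatory neurons 2.13 (SE 0.11, adjusted p = 2.07e-15), with no overlap of the oligodendrocyte range with any other. Tm7sf2, which encodes the other enzyme able to carry out that reduction, was lower in oligodendrocytes than in astrocytes by a log2 difference of -0.78 (SE 0.25, adjusted p = 0.0106). That difference did not pass in batch 2 alone (-0.17, adjusted p = 0.82) or in the control libraries alone (-0.62, adjusted p = 0.193). Ebp, the sterol isomerase, ran from 9.6 to 16.7 CPM in oligodendrocytes (median 14.3), from 3.48 to 10.2 in astrocytes (6.28) and from 3.36 to 6.27 in excitatory neurons (4.9). Its log2 difference was 1.02 from astrocytes (SE 0.22, adjusted p = 0.00025) and 1.08 from excitatory neurons (SE 0.15, adjusted p = 5.27e-07). The Ebp difference from astrocytes did not pass in batch 2 alone (0.97, adjusted p = 0.122) or in the ANGPT2 libraries alone (0.73, adjusted p = 0.0505).

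Of the sterol sensing genes, Srebf1 and Insig1 were higher in both glial types than in neurons, while Srebf2, Scap and Insig2 differed less. Srebf1 encodes the SREBP form best known for fatty acid synthesis. It ran from 37.1 to 67 CPM in astrocytes (median 55.2), from 32.9 to 44.6 in oligodendrocytes (38.3), from 4.94 to 10.1 in inhibitory neurons (6.66) and from 4.35 to 5.86 in excitatory neurons (5.22). Against excitatory neurons the log2 difference was 3.03 in astrocytes (SE 0.11, adjusted p = 2.81e-18) and 2.57 in oligodendrocytes (SE 0.10, adjusted p = 1.55e-17), and neither glial range reached a neuronal one. Insig1, a target of SREBP as well as its retention factor, ran from 66.2 to 138 CPM in astrocytes (median 125), from 54.1 to 92.4 in oligodendrocytes (68.5), from 11.9 to 28.4 in excitatory neurons (20.3) and from 7.7 to 19.7 in inhibitory neurons (14.3). Its log2 difference from excitatory neurons was 2.20 in astrocytes (SE 0.16, adjusted p = 7.08e-12) and 1.54 in oligodendrocytes (SE 0.16, adjusted p = 2.33e-09). The 2 glial ranges of Insig1 overlapped, although oligodendrocytes were lower within 6 of 7 libraries. Srebf2, the SREBP form that drives cholesterol synthesis, was at 131 ± 17.1, 101 ± 11.6, 87.9 ± 14.4 and 51.6 ± 7.43 CPM in astrocytes, oligodendrocytes, excitatory and inhibitory neurons (SD, n = 7). Its fitted difference between astrocytes and excitatory neurons was 0.23 (SE 0.09, adjusted p = 0.0223), and between inhibitory and excitatory neurons -0.88 (SE 0.08, adjusted p = 2.7e-09). The first of these was lost in 8 of 19 alternatives, among them batch 1 (0.23, adjusted p = 0.0673), batch 2 (0.24, adjusted p = 0.143), the control libraries (0.14, adjusted p = 0.471), no low count filter (0.14, adjusted p = 0.242) and the fit without control mouse 1 (0.15, adjusted p = 0.145), and it was 0.59 under total scaling. Insig2 passed in none of the 4 contrasts with TMM factors, but under total scaling it was higher than in excitatory neurons in astrocytes (0.49, adjusted p = 0.000723), oligodendrocytes (0.43, adjusted p = 0.000547) and inhibitory neurons (0.27, adjusted p = 0.0223).

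Handling of finished cholesterol was split between types. Soat1, which esterifies cholesterol for storage, ran from 143 to 208 CPM in astrocytes (median 176), from 17.2 to 25.8 in oligodendrocytes (21.4), from 17.8 to 26.7 in inhibitory neurons (22.4) and from 15.5 to 27.6 in excitatory neurons (19.3). Soat1 gave a log2 difference of 2.75 in astrocytes against excitatory neurons (SE 0.11, adjusted p = 5.39e-17) and -2.98 in oligodendrocytes against astrocytes (SE 0.13, adjusted p = 1.69e-16). The ranges of the other 3 types lay on top of each other, and neither oligodendrocytes nor inhibitory neurons differed from excitatory neurons past the threshold. Cyp46a1, the hydroxylase by which cholesterol leaves the brain, ran the opposite way: 57.1 to 88.3 CPM in inhibitory neurons (median 73.9), 42.4 to 65.4 in excitatory neurons (55.4), 32.5 to 51.9 in astrocytes (43.2) and 17.8 to 37.9 in oligodendrocytes (29.6). Against excitatory neurons its log2 difference was -1.27 in oligodendrocytes (SE 0.09, adjusted p = 5.16e-12), -0.68 in astrocytes (SE 0.10, adjusted p = 1.28e-06) and 0.34 in inhibitory neurons (SE 0.08, adjusted p = 0.00134). The last did not pass in batch 1 (0.20, adjusted p = 0.11) or in the control libraries (0.37, adjusted p = 0.136). Neighbouring types overlapped in range, yet Cyp46a1 was lower in astrocytes and in oligodendrocytes than in the excitatory neurons of the same library in 7 of 7.

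The liver X receptors also differed between types. Nr1h2 was at 22.1 ± 4.65 CPM in astrocytes, 19.2 ± 4.2 in oligodendrocytes, 10.8 ± 2.42 in inhibitory neurons and 9.47 ± 1.25 in excitatory neurons (SD, n = 7). Nr1h3 was scarce in all 4 types. It ran from 2.48 to 12.3 CPM in astrocytes (median 5.7), from 1.02 to 2.02 in excitatory neurons (1.58) and from 0 to 1.91 in oligodendrocytes (0.924), on 2 to 22 UMIs per astrocyte library. The log2 difference was 1.88 in astrocytes against excitatory neurons (SE 0.30, adjusted p = 5.46e-06) and -2.48 in oligodendrocytes against astrocytes (SE 0.39, adjusted p = 5.25e-06). Over 6873 bases Nr1h3 overlaps the annotated gene Gm13783, and reads there may be split between the 2 or lost. Stard4, a sterol transfer protein, was higher in astrocytes than in excitatory neurons by 0.75 (SE 0.22, adjusted p = 0.00382), at 14.1 ± 5.57 against 6.53 ± 1.49 CPM (SD, n = 7). Stard4 did not pass in batch 2 (0.73, adjusted p = 0.0626) or in the control libraries (0.67, adjusted p = 0.0999).

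**Figure D2:**
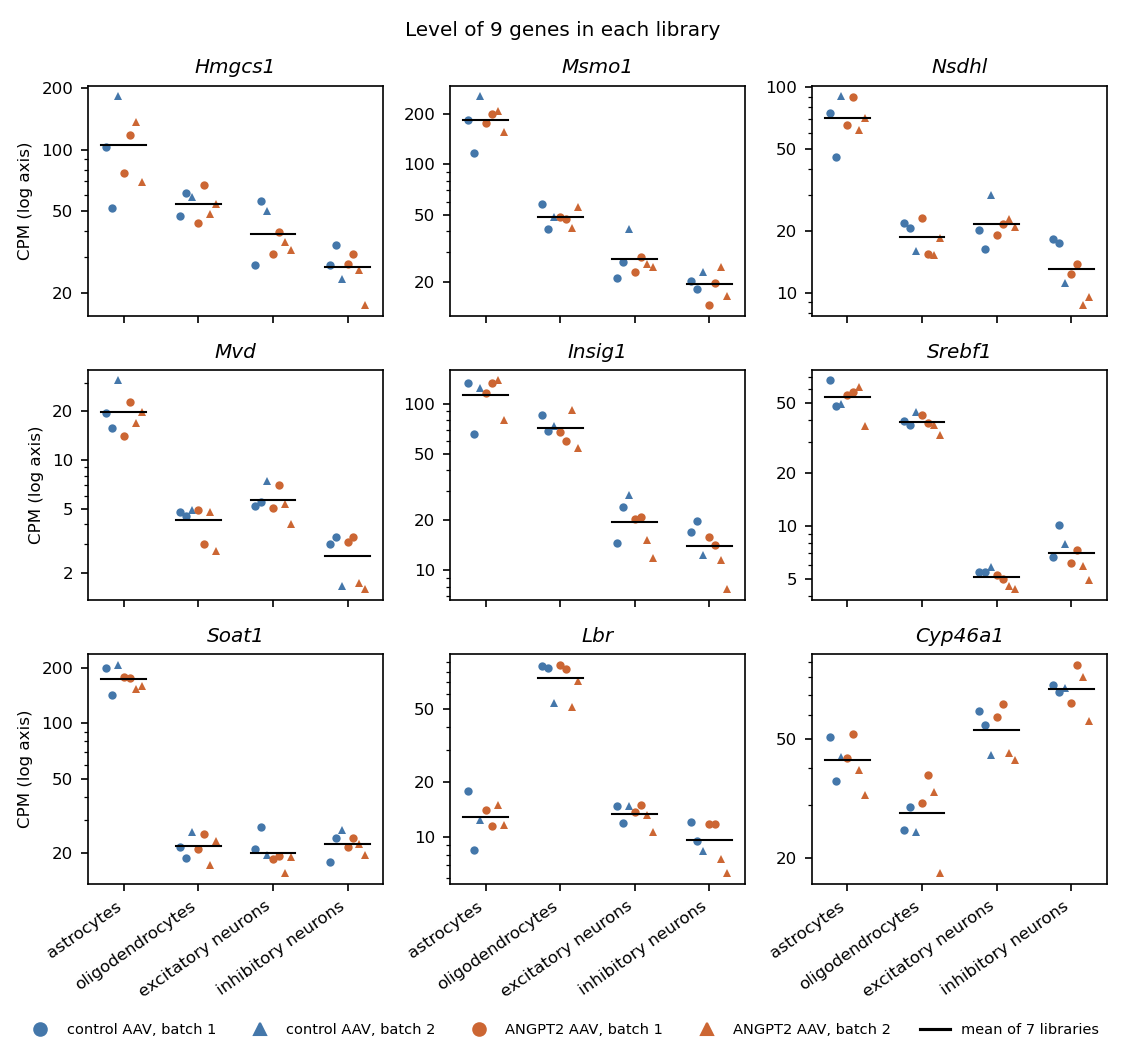
CPM on a log axis for 9 genes (panels) in 4 nucleus types (horizontal axis), with 1 point per library coloured by treatment and shaped by batch. Msmo1 and Soat1 show astrocyte points apart from all others, Lbr shows oligodendrocyte points at 51.5 to 87.4 CPM, and Cyp46a1 is lowest in oligodendrocytes.

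Markers of one type were also counted in nuclei of others, which may bear on low levels. Such sums do not tell RNA from other nuclei apart from the type's own RNA. The 7 excitatory markers summed to 629 to 1179 CPM in oligodendrocytes and to 470.1 to 912 CPM in astrocytes, a median of 40.4% and 28.4% of their level in excitatory neurons. The 10 astrocyte markers in excitatory neurons and in oligodendrocytes reached a median of 4.86% and 4.83% of their astrocyte level, and the 10 oligodendrocyte markers in astrocytes 5.85%. In oligodendrocyte precursors the 7 inhibitory markers reached a median of 78.7% of their level in inhibitory neurons (47.5% to 126%). Beside these stand the lower levels of a gene in one type and its higher level in another, such as Cyp46a1 at 28.3 CPM in oligodendrocytes and 53.3 CPM in excitatory neurons, or Soat1 at 20 CPM in excitatory neurons and 174 CPM in astrocytes. The part of RNA from other nuclei in these levels was not tested. Of the 30 genes, 17 passed for oligodendrocytes against excitatory neurons in all libraries but 11 in batch 2 and 8 in the control libraries alone, where the share of all genes went from 78.7% to 64.0% and 62.8%. The 21 for the neuron types became 13 in batch 1 and 4 in the control libraries, where the share of all genes went from 39.7% to 34.4% and 15.5%.

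Other nucleus types added 3 patterns, given as levels without a test. Soat1 reached 122 ± 11.5 CPM in the Inpp5d cluster (109 to 136) and 50.6 ± 5.75 CPM in oligodendrocyte precursors (SD, n = 7), so among the 6 types tested for treatment the Inpp5d cluster came next after astrocytes, and its range met neither theirs nor that of the precursors. Nr1h3 was at 80.9, 91.1 and 62.9 CPM in the mural nuclei of control mice 1 to 3 and at 107, 66.5, 86.3 and 0 CPM in those of ANGPT2 mice 1 to 4. These levels rest on 7, 7, 1, 9, 11, 2 and 0 UMIs, and a count of 0 in ANGPT2 mouse 4 allows up to 229 CPM. Stard4 was at 40.3 ± 14.7 CPM in endothelial nuclei (19.2 to 64.1, 38 UMIs in all), above its astrocyte mean of 14.1 CPM.

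Within astrocytes, the levels were compared between the 2 clusters, 1 led by Prex2, Gli3 and Gldc and the other by B230323A14Rik, Etnppl and Itih3. The first held 126 to 492 nuclei per library and the second 31 to 205. The fewest of the second, 31, were in ANGPT2 mouse 3, where levels of scarce genes rest on few nuclei. In all 7 libraries 7 of the 30 genes were higher in the first and none was higher in the second, where 4.91% and 3.78% of the 14737 genes with at least 10 UMIs were in those positions. Sqle was at 57.3 ± 13.5 against 25.7 ± 7.35 CPM, Pmvk at 25.3 ± 7.79 against 9.75 ± 6.16, Dhcr7 at 33.3 ± 9.27 against 19.2 ± 13 and Cyp51 at 113 ± 29.9 against 68.9 ± 36.9 (SD, n = 7). Idi1, Srebf2 and Stard4 were the other 3. Between the 2 largest oligodendrocyte clusters, Msmo1 (51.2 ± 6.68 against 45.8 ± 6.3 CPM) and Hsd17b7 (11.1 ± 2.76 against 7.13 ± 3.85 CPM) were higher in the larger one in all 7 libraries (SD, n = 7), and none of the 30 was higher in the smaller one. Of all 16295 genes with at least 10 UMIs, 7.38% and 4.76% were in those positions, so the count of 2 is at the background. No test was made between clusters, because clusters are defined by the genes of the same nuclei.

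The study's own comparison was between ANGPT2 AAV and control AAV. None of the 30 genes passed in any nucleus type or in whole libraries by edgeR's quasi-likelihood test with Benjamini-Hochberg adjustment, and none passed under any alternative that was run. No gene of any kind passed in these 7 comparisons (background 0), which tested 12411 genes in oligodendrocytes, 9560 in astrocytes, 17928 in excitatory neurons, 13924 in inhibitory neurons, 8343 in oligodendrocyte precursors, 9088 in the Inpp5d cluster and 19998 in whole libraries. DESeq2 passed 0 genes in 6 of the comparisons and 1 in whole libraries, which was none of the 30. At an unadjusted p under 0.05 the 30 genes gave 0, 0, 0, 0, 1, 1 and 0, in that order, where all genes gave 2.35%, 3.31%, 4.46%, 1.64%, 4.89%, 3.71% and 2.74%. The members tested numbered 29, 28, 30, 30, 19, 19 and 30, since a filter on low counts removed the others. In whole libraries, fewer cells of a type and less RNA per cell cannot be told apart.

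Most of the fitted differences lay on the lower side. The genes with a log2 difference above 0 were 12 of 29 in oligodendrocytes, 12 of 28 in astrocytes, 9 of 30 in excitatory neurons, 7 of 30 in inhibitory neurons, 8 of 19 in precursors, 8 of 19 in the Inpp5d cluster and 8 of 30 in whole libraries. Of all genes tested, 50.4%, 50.7%, 46.5%, 47%, 51%, 50.8% and 46.2% were above 0. The median over the genes was -0.05, -0.03, -0.08, -0.08, -0.17, -0.19 and -0.05, beside 0.00, 0.00, -0.02, -0.02, 0.01, 0.00 and -0.02 over all genes. The median SE of a single gene was 0.20 in oligodendrocytes and excitatory neurons, 0.24 in astrocytes and 0.21 in inhibitory neurons. The 95% interval of a gene's difference lay within 2-fold in both directions for 27 of 29 genes in oligodendrocytes, 27 of 28 in astrocytes, 30 of 30 in excitatory neurons, 28 of 30 in inhibitory neurons, 12 of 19 in precursors and 16 of 19 in the Inpp5d cluster. Control mouse 3 bore on the excitatory value: its 20 enzymes summed to 548 CPM there, against 365 and 409.7 CPM in control mice 1 and 2 and 384, 433, 394 and 347 CPM in ANGPT2 mice 1 to 4, and without it the median was 0.04. Without control mouse 1 the median was -0.18, and without any other single library it was -0.12 to -0.05. The enzyme sum was also highest in control mouse 3 in astrocytes (1387 CPM) and whole libraries (488 CPM). In oligodendrocytes, inhibitory neurons, precursors and the Inpp5d cluster it was highest in control mouse 1. The sum was lowest in ANGPT2 mouse 4 in all but oligodendrocytes and astrocytes.

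**Figure D3:**
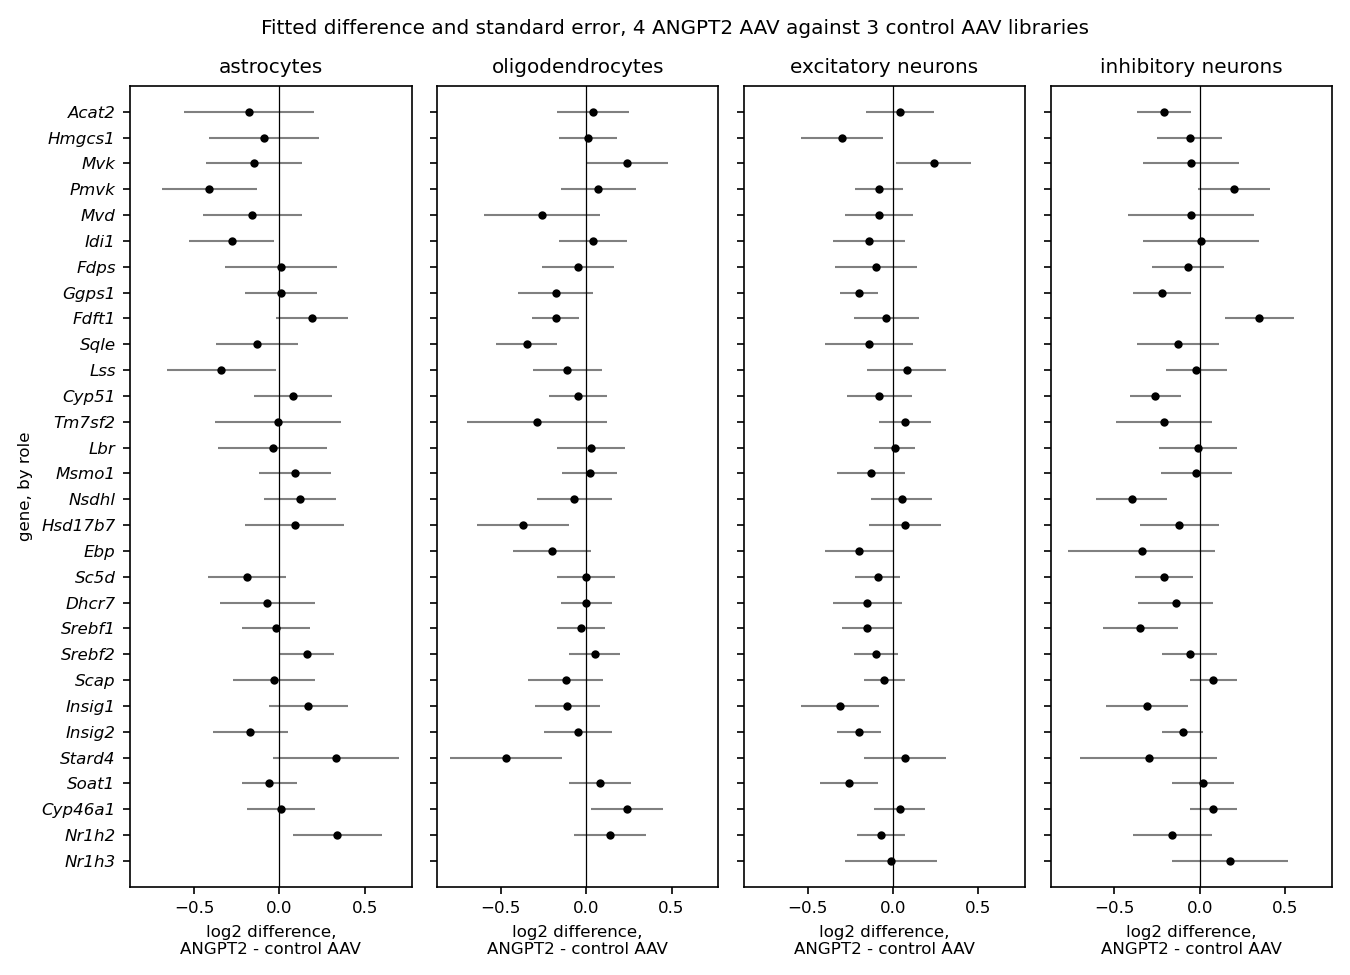
Fitted log2 difference of ANGPT2 AAV against control AAV (horizontal axis) with its standard error (bars) for each gene (vertical axis, grouped by role) in 4 nucleus types. The points scatter around 0, between -0.47 for Stard4 in oligodendrocytes and 0.35 for Fdft1 in inhibitory neurons, and no gene passed the test.

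In oligodendrocytes the smallest p belonged to squalene epoxidase, Sqle, at 28.9, 24.1 and 36.2 CPM in control mice 1 to 3 and 21.5, 24.7, 18.1 and 22.6 CPM in ANGPT2 mice 1 to 4. The log2 difference was -0.35 (SE 0.18, 95% interval -0.70 to 0.00, unadjusted p = 0.073, adjusted p = 1), and control mouse 2 lay within the ANGPT2 range. Stard4 was at 8.18, 14.5 and 9.75 CPM in control and 8.99, 5.08, 7.62 and 9.6 CPM in ANGPT2 mice, a difference of -0.47 (SE 0.33) that rests on control mouse 2 and, in a fit of batch 2 alone, was 0.01. Hsd17b7 was at 12.2, 10.3 and 12.5 CPM in control and 8.72, 9.7, 3.81 and 11 CPM in ANGPT2 mice, where the low value of ANGPT2 mouse 3 comes from 4 UMIs. That difference was -0.37 (SE 0.27). For Fdft1, squalene synthase, the levels were 56, 62.4 and 65.5 CPM in control and 58.6, 50.1, 54.3 and 43.9 CPM in ANGPT2 mice, with a difference of -0.18 (SE 0.14). Cyp46a1 leaned upward, at 24.9, 29.6 and 24.4 CPM in control and 30.5, 37.9, 33.3 and 17.8 CPM in ANGPT2 mice, with a difference of 0.24 (SE 0.21). The groups overlapped for all 29 genes tested in this type, where 4.30% of all genes had no overlap.

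In astrocytes the smallest p was 0.166, for Pmvk, at 25.1, 16.9 and 33.4 CPM in control and 14, 21.7, 22.4 and 15.1 CPM in ANGPT2 mice. The log2 difference was -0.41 (SE 0.28, adjusted p = 0.997), and control mouse 2 lay below 2 of the ANGPT2 mice. Nr1h2 was at 25.1, 16.9 and 14.9 CPM in control and 23.5, 24, 28 and 22.1 CPM in ANGPT2 mice, a difference of 0.34 (SE 0.26) against which control mouse 1 stood among the ANGPT2 mice. Idi1 was at 50.3, 30.1 and 60.7 CPM in control and 35.5, 49.1, 22.4 and 34.8 CPM in ANGPT2 mice. Its difference of -0.28 (SE 0.25) came from batch 2, and a fit of batch 1 alone gave 0.00. Lss, lanosterol synthase, was at 34.6, 20.5 and 54.5 CPM in control and 19.7, 34.8, 39.2 and 18.6 CPM in ANGPT2 mice, with a difference of -0.34 (SE 0.32) and the control mice more spread than the groups were apart. Srebf2 was at 135, 98.7 and 147 CPM in control and 135, 147, 136 and 119.5 CPM in ANGPT2 mice, a difference of 0.16 (SE 0.16) that was -0.04 in batch 2 alone. Groups overlapped for all 28 genes tested (5.25% of all genes had none).

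In excitatory neurons, where each library gave the most UMIs, Ggps1 had the smallest p, at 52.1, 41.2 and 41.3 CPM in control and 41, 43.7, 32.1 and 31.9 CPM in ANGPT2 mice. The log2 difference was -0.20 (SE 0.11, 95% interval -0.42 to 0.03, unadjusted p = 0.117, adjusted p = 0.899), and the ANGPT2 mice of batch 1 stood with the controls. Soat1 was at 21.1, 27.6 and 19.4 CPM in control and 18.5, 19.3, 15.5 and 18.9 CPM in ANGPT2 mice, one of 2 genes with Srebf1 whose groups did not overlap (4.44% of all genes). Its difference of -0.26 (SE 0.17) was -0.03 without control mouse 2, -0.39 without control mouse 3 and 0.10 in a fit of batch 2 alone. Insig2 was at 24.6, 20.7 and 29 CPM in control and 22.4, 24.5, 16.2 and 17.8 CPM in ANGPT2 mice, a difference of -0.20 (SE 0.13). Both Insig genes were high in control mouse 3: Insig1 was at 14.7, 24 and 28.4 CPM in control and 20.3, 21, 15.3 and 11.9 CPM in ANGPT2 mice, a difference of -0.31 (SE 0.23) that was 0.02 in batch 1 alone. Hmgcs1, whose window above holds 3 CCAAT boxes, was at 27.3, 56.5 and 50.2 CPM in control and 30.9, 39.5, 35.4 and 32.3 CPM in ANGPT2 mice. The difference was -0.30 (SE 0.24), and it was -0.01 without control mouse 2, the library with high Fos and Bdnf. It was -0.58 without control mouse 1, and -0.28 with clusters of 1 library left out. The mix of excitatory neurons differed between mice too. Their thalamic cluster held 356, 309 and 173 nuclei in control mice 1 to 3 and 475, 400, 25 and 239 in ANGPT2 mice 1 to 4. The part of this mix in the levels, and in the contrasts with other types, was not tested.

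In inhibitory neurons Nsdhl was at 18.2, 17.4 and 11.2 CPM in control and 12.4, 13.8, 8.68 and 9.48 CPM in ANGPT2 mice, a log2 difference of -0.40 (SE 0.21, 95% interval -0.82 to 0.01, unadjusted p = 0.0908, adjusted p = 0.98). Within each batch the control mice were above the ANGPT2 mice, and the groups overlapped because batch 2 was lower. Fdft1 was at 21.2, 31.4 and 27 CPM in control and 29.6, 43.2, 31.7 and 24.1 CPM in ANGPT2 mice, a difference of 0.35 (SE 0.20), on the other side of 0 from its oligodendrocyte value. Cyp51 was at 38.8, 44.2 and 37.1 CPM in control and 36.9, 38.5, 25.3 and 26.3 CPM in ANGPT2 mice, a difference of -0.26 (SE 0.15) with the 2 low values in ANGPT2 mice of batch 2. The remaining pair were sensing genes. Srebf1 was at 6.66, 10.1 and 7.85 CPM in control and 6.18, 7.26, 5.92 and 4.94 CPM in ANGPT2 mice, a difference of -0.35 (SE 0.22). Insig1 was at 17, 19.7 and 12.3 CPM in control and 15.9, 14.3, 11.5 and 7.7 CPM in ANGPT2 mice, a difference of -0.31 (SE 0.24). No gene's groups were without overlap here (3.25% of all genes were). The number of inhibitory nuclei ran from 352 to 2011 per library, and the mix of neurons among them differed between mice. Their largest cluster, of medium spiny neurons, held 6, 101 and 1219 nuclei in control mice 1 to 3. In ANGPT2 mice 1 to 4 it held 131, 396, 825 and 446 nuclei. Another medium spiny cluster drew 704 of its 838 nuclei from ANGPT2 mouse 3. The part of this mix in the levels, and in the contrast with excitatory neurons, was not tested.

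Oligodendrocyte precursors gave the lowest p of all. Ggps1 was at 51, 61.5 and 29.6 CPM in control and 28.8, 25.8, 26.7 and 19 CPM in ANGPT2 mice, on 158 UMIs in all. Its log2 difference was -0.93 (SE 0.28, 95% interval -1.47 to -0.39, unadjusted p = 0.00252, adjusted p = 0.931). The log2 ratio of the mean CPM was -1.04 in batch 1 and -0.37 in batch 2. The groups did not overlap, as for 6.14% of all genes, but control mouse 3 was within 1 CPM of ANGPT2 mouse 1. Nr1h2 was at 15.4, 27 and 19.7 CPM in control and 16.5, 8.15, 7.63 and 11.9 CPM in ANGPT2 mice, a difference of -0.75 (SE 0.42). Fdps was at 19.2, 8.99 and 19.7 CPM in control and 5.49, 13.6, 19.1 and 2.37 CPM in ANGPT2 mice, a difference of -0.69 (SE 0.50) on 52 UMIs. Msmo1 and Cyp51 gave -0.38 (SE 0.31) and -0.26 (SE 0.26). Msmo1 was at 29.8, 22.5 and 36.2 CPM in control and 23.3, 24.4, 19.1 and 14.2 CPM in ANGPT2 mice, and Cyp51 at 37.5, 36 and 49.3 CPM against 39.8, 31.2, 26.7 and 23.7 CPM. With 93 to 221 nuclei per library, 11 of the 30 genes were too low to test.

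In the Inpp5d cluster, Nr1h2 was at 31.5, 46 and 34.4 CPM in control and 19.7, 22.5, 18.7 and 31.5 CPM in ANGPT2 mice, with control mouse 1 and ANGPT2 mouse 4 equal at 3 digits. Nr1h2 had a log2 difference of -0.63 (SE 0.29, 95% interval -1.20 to -0.07, unadjusted p = 0.0425, adjusted p = 1). Msmo1 was at 43, 31.3 and 41.2 CPM in control and 30.4, 29.1, 22.5 and 26.2 CPM in ANGPT2 mice, a difference of -0.42 (SE 0.26), and these were the 2 genes of 19 whose groups did not overlap (5.12% of all genes). Idi1 was at 22.9, 9.78 and 27.5 CPM in control and 7.16, 18.5, 7.49 and 5.25 CPM in ANGPT2 mice, a difference of -0.80 (SE 0.48) in which control mouse 2 and ANGPT2 mouse 2 crossed. Both Ggps1 and Insig2 gave -0.22 (SE 0.22 and 0.23), with opposite signs in the 2 batches. Ggps1 was at 74.5, 71.4 and 48.1 CPM in control and 57.3, 49, 67.4 and 54.2 CPM in ANGPT2 mice, and Insig2 at 61.1, 47.9 and 45.8 CPM against 35.8, 39.7, 56.1 and 49 CPM.

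Whole libraries gave no larger differences. Insig2 was at 27.8, 23.2 and 31.6 CPM in control and 24, 26.9, 22.4 and 20.4 CPM in ANGPT2 mice, a log2 difference of -0.15 (SE 0.10, unadjusted p = 0.189, adjusted p = 0.998). Sc5d, the sterol desaturase, was at 36.6, 31.2 and 36.7 CPM in control and 30.2, 32.9, 31.1 and 26.4 CPM in ANGPT2 mice (-0.13, SE 0.09). Ggps1 (-0.18, SE 0.13), Insig1 (-0.17, SE 0.16) and Soat1 (-0.11, SE 0.11) followed. Groups overlapped for all 30 genes (3.82% of all genes had none).

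**Figure D4:**
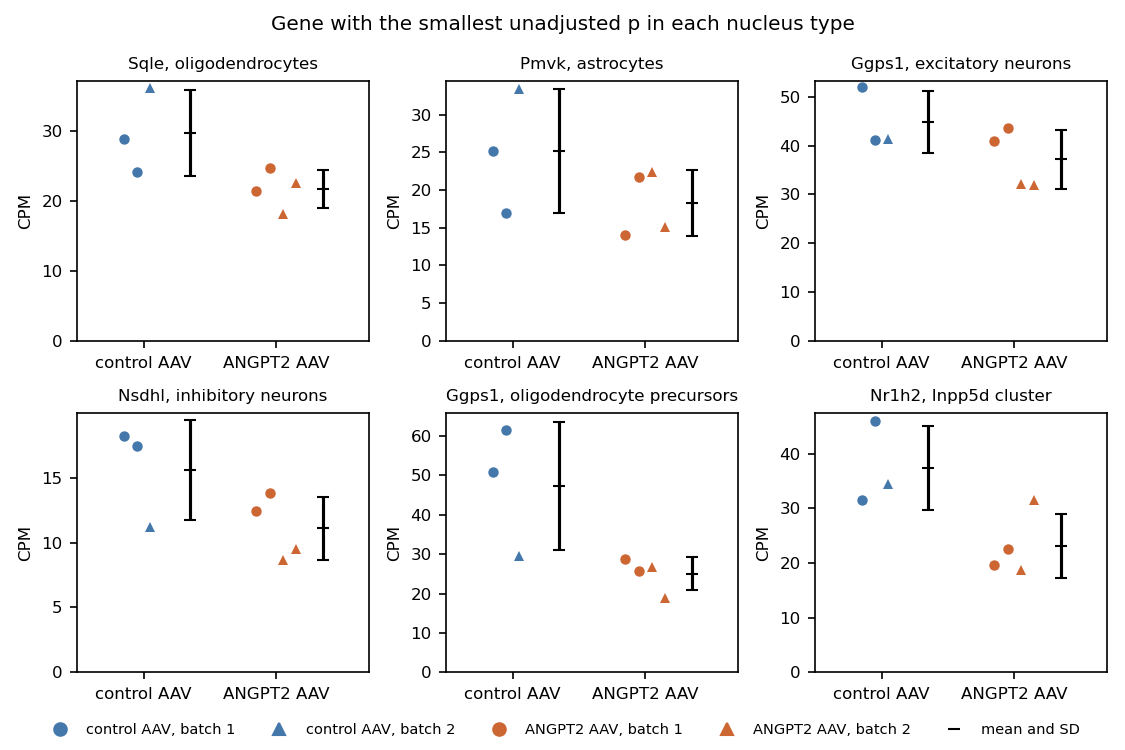
CPM (vertical axis, from 0) of the gene with the smallest unadjusted p in each nucleus type, with 1 point per library by treatment, shaped by batch, and bars for the mean and SD of each group. Ggps1 in oligodendrocyte precursors and Nr1h2 in the Inpp5d cluster show groups that do not overlap, and the other panels show overlap.

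Whether the treatment difference itself differed between types was tested by an interaction term in edgeR. No gene passed in the 3 pairs of types (background 0 of 14686 genes), and of the 30 genes none had an unadjusted p under 0.05, where 3.43%, 1.97% and 3.23% of all genes did. The smallest p for astrocytes against excitatory neurons was 0.174, for Srebf2 (0.25, SE 0.18). For oligodendrocytes it was that of Stard4, 0.115 against excitatory neurons (-0.62, SE 0.38) and 0.0913 against astrocytes (-0.84, SE 0.48).

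Of 36 other genes of the pathway, in lists of 8 for further synthesis and uptake, 9 for efflux and lipoproteins, 10 for oxysterols and sterol transfer and 9 for the fatty acid targets of SREBP, none passed for treatment in any class. At an unadjusted p under 0.05, 1 of 34 tested in oligodendrocytes, 1 of 33 in astrocytes, 4 of 35 in excitatory neurons, 0 of 32 in inhibitory neurons, 0 of 27 in precursors, 1 of 28 in the Inpp5d cluster and 5 of 36 in whole libraries fell under it, all but 1 in excitatory neurons and 1 in whole libraries on the lower side. The shares of all genes were 2.35%, 3.31%, 4.46%, 1.64%, 4.89%, 3.71% and 2.74%, in that order. Mylip, a ubiquitin ligase for lipoprotein receptors that the liver X receptors induce, was at 14.6, 16.7 and 13.4 CPM in the excitatory neurons of control and 10.8, 10.1, 8.97 and 8.21 CPM in those of ANGPT2 mice. That was a log2 difference of -0.58 (SE 0.15, unadjusted p = 0.00309, adjusted p = 0.899), with no overlap. Gramd1a, a sterol transporter at membrane contacts, was at 48.2, 52.4 and 45.3 against 42, 42.3, 30.4 and 31.4 CPM in excitatory neurons (-0.34, SE 0.12, unadjusted p = 0.0206). Cyp27a1, a sterol hydroxylase, was at 74.9, 65 and 69.6 against 54.5, 60.7, 51.5 and 36.3 CPM in oligodendrocytes (-0.39, SE 0.15, unadjusted p = 0.0231), and Osbpl6 at 63, 66.5 and 64.1 against 51.9, 42.3, 33.7 and 43.7 CPM in the Inpp5d cluster (-0.52, SE 0.21, unadjusted p = 0.0247). Between types, the 4 lists differed in astrocytes against excitatory neurons, where 35.3% of all genes were higher and 37.1% lower. Of the 9 fatty acid targets 8 were higher and 0 lower (median log2 difference 2.05), and of 7 tested for further synthesis and uptake 5 were higher and 0 lower (0.77). Efflux and lipoproteins gave 4 higher and 4 lower of 9 (-0.06), and oxysterols and sterol transfer 3 higher and 5 lower of 9 tested (-0.35). The median over all genes was -0.03.

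The dentate granule neurons of control mouse 2 formed a cluster of their own. Its 675 nuclei from that library were 98.11% of the cluster, and that library had 6 nuclei in the cluster that held the dentate granule neurons of the other 6 libraries. Of the 30 genes, 18 were above all 6 other libraries there, 2 (Scap and Insig2) were below all of them and 10 lay within. Of all 15311 genes with at least 10 UMIs in these nuclei, 13.4% were above all 6 and 24.4% below. For 9 of the 30, and for 4.28% of all genes, the 95% Poisson interval, which covers counting error only, was also clear of the highest other library's interval. Hmgcs1 was at 65.8 CPM (59.6 to 72.6) against 1.99 to 29.7 CPM in the other libraries, and Cyp51 at 88.7 CPM against 19.4 to 37.8. Msmo1 was at 60.1 CPM against 7.89 to 17.3, Fdft1 at 52 against 12.4 to 21.9 and Sqle at 29.6 against 3.47 to 11.5. Of the 5 sterol sensing genes, Srebf2 at 115 CPM against 33.8 to 48.7 and Insig1 at 37.7 against 6.68 to 17.3 were above, Srebf1 lay within, and Scap at 22.4 against 26.7 to 41.3 and Insig2 at 19.3 against 21.9 to 36.8 were below. Sc5d and Nr1h2 completed the 9. In these nuclei Bdnf was at 1166 CPM against 41.3 to 91.1 and Fos at 147 CPM against 0 to 4.95. Outside the cluster, the excitatory neurons of control mouse 2 were the highest of the 7 libraries for 4 of the 30 genes (Hmgcs1, Fdft1, Ebp and Soat1; 13.5% of all genes) and the lowest for 6 (Mvk, Fdps, Sqle, Lss, Msmo1 and Nsdhl; 19.5% of all genes). There Hmgcs1 was at 55 CPM against 27.3 to 50.3 and Fdft1 at 58.4 against 33.5 to 53.5, while Cyp51 was at 48.6 against 35.9 to 70.2, Sqle at 14.9 against 15.2 to 36.3 and Msmo1 at 21.1 against 21.2 to 41.5, beside Bdnf at 154 CPM against 21.5 to 40.4. This is 1 library, so no test applies, and the cause was not tested.

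**Figure D5:**
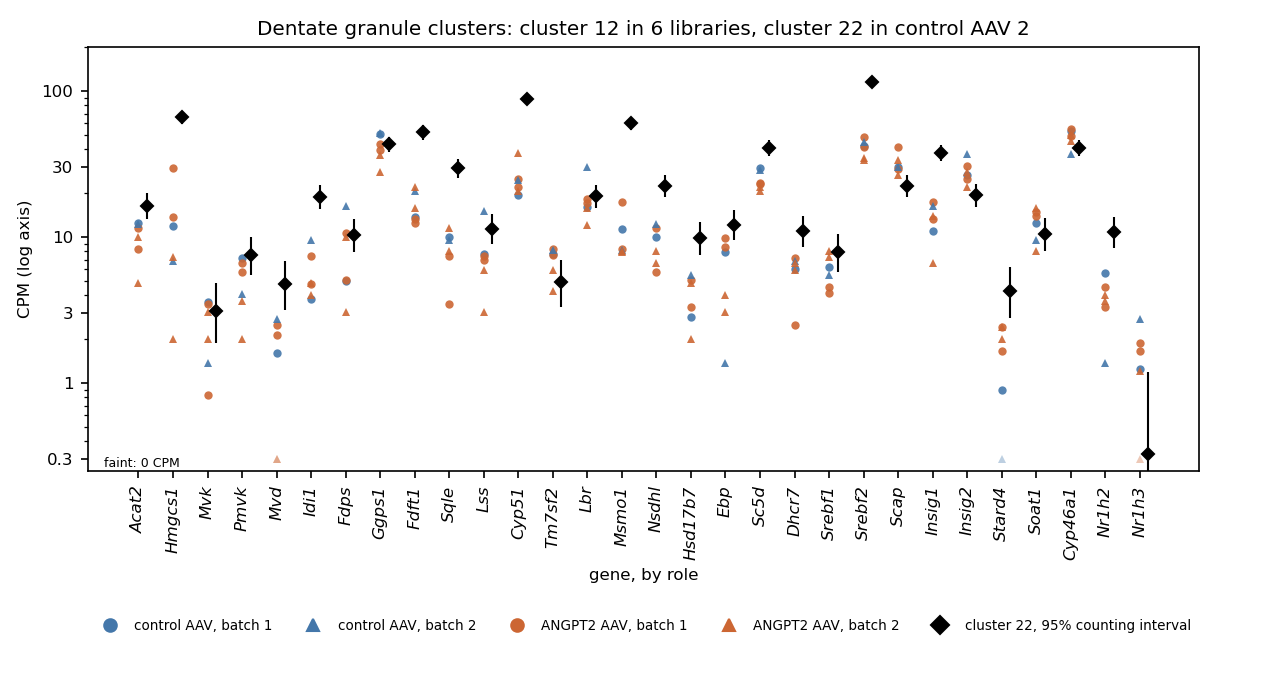
CPM on a log axis (vertical) of the genes, by role (horizontal), in dentate granule neurons: coloured points for the 6 libraries of cluster 12 and black diamonds for cluster 22 of control mouse 2 with 95% Poisson intervals. Faint points at 0.3 stand for 0 CPM. Hmgcs1, Cyp51, Msmo1 and Srebf2 of cluster 22 lie above all 6 libraries, and Scap and Insig2 lie below them.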

How the data were processed

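Nuclear RNA of 7 libraries, 1 mouse each, was measured by droplet single-nucleus sequencing from frozen, embedded tissue. The deposited values are raw UMI counts, 1 per gene and barcode, made by the authors with Cell Ranger 6.1.2 on mm10 (GRCm38) per the submitters' processing notes. Whether intronic reads were counted is not given in the sources used here.

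Barcodes with at least 300 genes and under 5% mitochondrial UMIs were kept (58169 of 58286), and 3939 called doublets (5.04% to 7.7% per library) were removed. Nuclei were clustered (scikit-learn 1.9.0, igraph 0.11.9; counts scaled to 10000, 2500 variable genes, 40 components, 15 neighbours, resolution 1), with the 30 genes and 36 other genes of the pathway left out of the variable genes. Clusters were named from markers of 17 types. The 30 genes, the lists and the markers were chosen with earlier results of these data known. Per the GENCODE annotation, 9 of the 30 genes overlap another counted gene, by 11268 bases for Lss (with 4930483K19Rik) and 6190 bases for Hmgcs1 (with Gm48342), and their counts are uncertain to that extent.

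Counts were summed per library and type. The quasi-likelihood test of edgeR 4.0.16 (R 4.3.3) was used with TMM factors, a filter on low counts (filterByExpr, 10 per library scaled to size, 15 in all), and Benjamini-Hochberg adjustment over all genes tested. The test was also run on simulated counts, which held no batch difference and changes of at least 2-fold. That run does not cover smaller differences or batches. Treatment was tested over 3 control and 4 ANGPT2 libraries in types with at least 10 nuclei per library, with no other term, and types were compared with the library as a block. SE is the log2 difference divided by the root of the F statistic, and intervals of treatment differences are 1.96 SE on each side. With 7 libraries such an interval is narrower than a 95% interval of the test. With edgeR's Poisson bound on, a p-value can be larger than the F statistic alone gives. Each gene's spread was also drawn toward that of the other genes. Because each library is 1 mouse, p-values of the treatment tests rest on this moderated spread between mice. Those between types and of the interaction rest on the spread left after the library block removed each mouse's own level. They come from sums of several types in the same 7 mice.

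Named for treatment were the 5 genes with the smallest p in each type, for types up to 6 genes per contrast and direction past the threshold and at least 2-fold apart, and of the other pathway genes the 2 with the smallest p per type. Some other genes of the pathway are not reported here. The labels give a replicate number, 1 or 2, as the batch (mice are numbered here within a group), and it ties the libraries of the 2 groups in that way. In excitatory neurons, deviations from group means correlated, between libraries of different groups, at 0.14 to 0.3 in the same batch and sex, at 0.03 to 0.06 in the same batch and other sex, and at -0.28 to 0.04 between batches. Deviations within a group sum to 0, so the values within and between batches are not independent. The fit with this replicate block was run beside the one without it. DESeq2 1.42.0, RLE factors, total UMI scaling, no filter, batch and sex terms, doublets kept, a finer clustering, single batches and each library left out were the alternatives. In the finer clustering the oligodendrocytes were a different set. Clusters of 3719 and 1470 nuclei that matched them best were unnamed. Another of 429 nuclei led by Ly86 and Inpp5d, 42.66% of them doublets that were removed, was counted with them. Single batches, single treatments, single clusters, clusters of 1 library left out and total UMI scaling were chosen after seeing the data.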

Additional observations from a re-analysis of the deposited data

Results flagged for a closer look

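For the 5 genes named in each of the 7 treatment comparisons, the 4 ANGPT2 libraries were checked for a library far from the others by Dixon's test at the 95% level, 35 groups in all. One was picked out: Idi1 in the Inpp5d cluster was at 18.5 CPM in ANGPT2 mouse 2 and at 5.25 to 7.49 CPM in the other 3, a gap of 0.831 of the range, just above the critical value for 4 samples. Chance alone picks out about 1 in 20 such groups.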

How the results depend on the processing

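The 30 genes gave 0 calls for treatment in every type and in whole libraries under all alternatives run. For all genes, calls went from 0 to 32 in oligodendrocytes, 44 in astrocytes, 21 in precursors and 49 in the Inpp5d cluster without a low count filter. With replicate block and sex they went to 2 in astrocytes, 2 in precursors and 10 in the Inpp5d cluster, with a sex term to 3 in the Inpp5d cluster, and with DESeq2 to 1 in whole libraries. In batch 2 alone they were 47, 16 and 2 in oligodendrocytes, astrocytes and excitatory neurons. Leaving out 1 library gave 0 to 2 in precursors (2 without control mouse 2), 0 to 1 in the Inpp5d cluster (1 without control mouse 1 or ANGPT2 mouse 4) and 0 to 1 for the difference between astrocytes and excitatory neurons (1 without control mouse 3). The cause of these changes was not tested.

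Between types, the genes that passed for oligodendrocytes against excitatory neurons were 11 in batch 2 and 8 in control libraries, and for inhibitory against excitatory neurons 13 in batch 1 and 4 in control libraries. Over all genes, oligodendrocytes against astrocytes gave 5265 in batch 2 and 5349 in control libraries, and the neuron types 2342 in control libraries. Fewer libraries entered each of these.

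Treatment differences that crossed 0 were Stard4 (0.01, batch 2) and Fdft1 (0.03, finer clustering) in oligodendrocytes, Idi1 (0.00, batch 1) and Srebf2 (-0.04, batch 2) in astrocytes, and Soat1 (0.10, batch 2) and Insig1 (0.02, batch 1) in excitatory neurons. None of them had passed before. With the replicate block, 0 of 185 tested values of the 30 genes passed, the lowest adjusted p was 0.831 and the largest shift was 0.14, and the block changed no call. Depth limits the low genes most: Nr1h3 was untested in 4 of the 6 types.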
